A study of Homo sapiens with 6 samples.

Results

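The genes described here are 40 genes that carry human cells from G1 into S phase and copy their DNA. They were followed in HEK293 cells, an established human embryonic kidney line, and were read from every probe set that the platform annotation assigns to exactly 1 of them. This gave 76 probe sets of 41751 on the array, or 40 genes of 18338. The genes were grouped as 9 cyclins, cyclin-dependent kinases (CDKs) and their activator, 10 licensing genes, 14 fork genes, 2 genes of nucleotide supply, 3 E2F factors and 2 other S-phase genes.

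The study compared a HEK293 Tet-On line stably carrying a control vector with a Tet-On line stably carrying a myocilin vector, on 3 HG-U133 Plus 2.0 arrays each. In a Tet-On line doxycycline switches on the inserted gene. The protocols, worded alike for both lines, give 0.2 or 1 µg/ml doxycycline for 48 h and growth under hygromycin B and G418 in serum; the dose behind each array is not given, and the description that names doxycycline is attached to the myocilin samples only. Each vector is represented by 1 line, whose origin as a clone or a pool is not stated, and HEK293 cells carry adenoviral E1 genes, whose E1A product is known to bind the RB protein. An effect of myocilin and any other difference between the lines cannot be told apart. The labels do not say whether the 3 arrays of a line are separate cultures; p-values therefore reflect array-to-array spread alone, which may be technical. Values are centred for each probe set on an unstated level, on a scale read as log2, so they show differences between arrays and neither a gene's abundance nor its detection, and markers of the line cannot be checked by level. MYOC, the induced gene, read -6.71, -8.32 and -8.29 in the control line and 0.21, 0.20 and 0.24 in the myocilin line, in the direction of the labels. The order in which the arrays were run is not stated in the labels. Effects of the line, of any difference in doxycycline exposure and of any such order cannot be told apart.

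As background, passage through G1 is driven by D-type cyclins with CDK4 and CDK6 and then by E-type cyclins with CDK2, which phosphorylate RB and free the E2F factors to transcribe replication genes. Origins are licensed when ORC, CDC6 and CDT1 load the ring of MCM2 to MCM7 onto DNA, and geminin blocks CDT1 once S phase has begun. Loaded rings become active helicases when CDC45 and the GINS complex join, with the help of MCM10. Polymerases, the PCNA clamp and ligase then copy the strands from nucleotides that ribonucleotide reductase supplies.

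The 2 lines differed in individual genes of this machinery and not in one direction. Of the 40 genes, 8 were higher and 7 lower in the myocilin line and 25 did not pass the test (limma, adjusted p under 0.05 over all 18338 genes). Over all genes, 15.6% passed, 8.28% as higher and 7.35% as lower, against 37.5% of the members. Because the members were chosen with earlier results of these data known, shares counted over them are not independent of these data. The members' median log2 difference (myocilin minus control) was 0, with 20 genes above and 20 below it, and that of all genes was 0.02. Differences were small. They ran from -0.48 for MCM6 to 0.36 for E2F3, and 0 of the 40 genes reached a 2-fold change. The mean over the 40 genes was -0.02, 0.01 and 0.02 in the control line and 0.01, 0.02 and -0.01 in the myocilin line, so the lines overlapped in the mean while single genes separated. The control and myocilin values did not overlap for 25 of the 40 genes, among them all 15 that passed, against 34.9% of all genes. In RNA from a whole culture, fewer cells in S phase and less RNA per cell cannot be told apart.

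**Figure D1:**
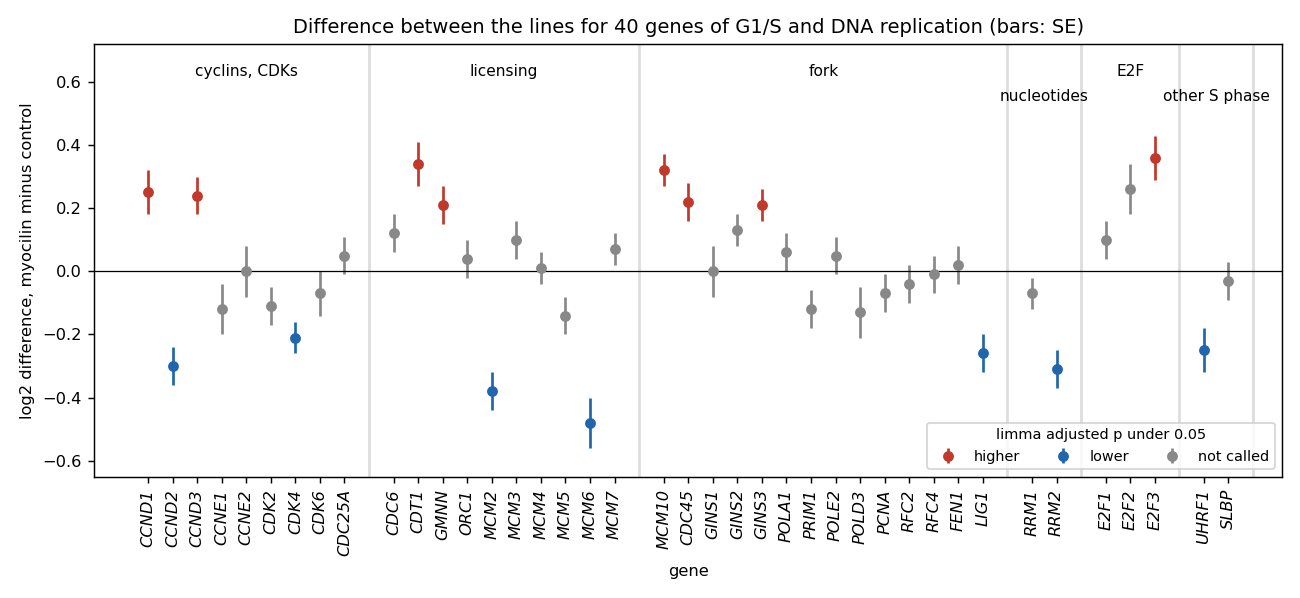
Log2 difference (myocilin minus control, vertical axis) of the 40 genes, grouped by role along the horizontal axis; points are limma estimates from 3 arrays per line, bars are 1 SE and colours give the call at an adjusted p under 0.05. Every class of more than 3 genes holds both higher and lower genes, from MCM6 at -0.48 to E2F3 at 0.36.

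Among the 9 cyclins, CDKs and their activator, 2 were higher, 2 lower and 5 did not pass, with a median difference of -0.07. The D-type cyclins, which pair with CDK4 and CDK6, went opposite ways. CCND1 read -0.06, 0.01 and 0.10 in the control line and 0.35, 0.22 and 0.24 in the myocilin line. All of its myocilin values lay above all control values, and it rose by 0.25 ± 0.07 (log2 difference, SE), or 1.19-fold (limma adjusted p = 0.0319). CCND3 read 0.01, -0.13 and 0 in the control line and 0.14, 0.24 and 0.21 in the myocilin line, a rise of 0.24 ± 0.06 (limma adjusted p = 0.0315). CCND2 moved against them: 0.14, 0.22 and 0.29 in the control line were followed by -0.06, -0.09 and -0.11 in the myocilin line. It fell by 0.30 on the log2 scale (SE 0.06, limma adjusted p = 0.00961). Within each array, CCND1 minus CCND2 was -0.20 ± 0.02 in the control line and 0.36 ± 0.05 in the myocilin line (SD, n = 3 each), a shift of 0.56. Because each probe set is centred on a reference level that is not stated, only the shift between the lines carries meaning here, not the sign in either line. CCND2 minus CCND3 was 0.26 ± 0.12 and -0.29 ± 0.07 (SD, n = 3 each). Both comparisons separated the lines fully and gave an exact two-sided permutation p of 0.1 (0.15 adjusted over the 3 cyclin pairs). This is the smallest p that 3 arrays against 3 allow, so they cannot pass a threshold of 0.05. The separation was also fixed in advance and adds nothing to the single genes. CCND1 and CCND3 rose and CCND2 fell, each without overlap between the lines. CCND1 minus CCND3 did not separate them (shift 0.01, exact permutation p = 1).

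The kinases of these cyclins read lower or level. CDK4 has 1 probe set, at 0, 0.02 and 0.01 in the control line and -0.21, -0.19 and -0.21 in the myocilin line. Its arrays agreed within 0.01 (SD) in each line, and it fell by 0.21 (SE 0.05, limma adjusted p = 0.0236 among genes). In the fit over all probe sets, where 11% passed, the same values did not pass (limma adjusted p = 0.0681). CDK6 has 7 probe sets that disagreed, and its mean of -0.07 did not pass (limma adjusted p = 0.538). Probe set 224848_at read 0.38, 0.44 and 0.39 in the control line and 0.08, -0.06 and 0 in the myocilin line. It fell by 0.40 (SE 0.07, limma adjusted p = 0.00769 over probe sets), beside falls of 0.34 at 224847_at and 0.35 at 224851_at. The other 4 CDK6 probe sets differed by 0.01 to 0.27 and did not pass; 243000_at, at 0.25, had lines that did not overlap. Which CDK6 transcripts each probe set reads was not analysed here.

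CDK2 and its partner CCNE1 did not pass, at -0.11 (95% interval -0.25 to 0.04) and -0.12 (-0.29 to 0.06). The other E-type cyclin gene, CCNE2, had a difference that rounds to 0 (-0.20 to 0.19), and the lines overlapped. CDC25A, the phosphatase that activates CDK2, was at 0.05 (-0.09 to 0.20). The intervals of CDK2 and CCNE1 include a fall as large as that of CDK4.

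**Figure D2:**
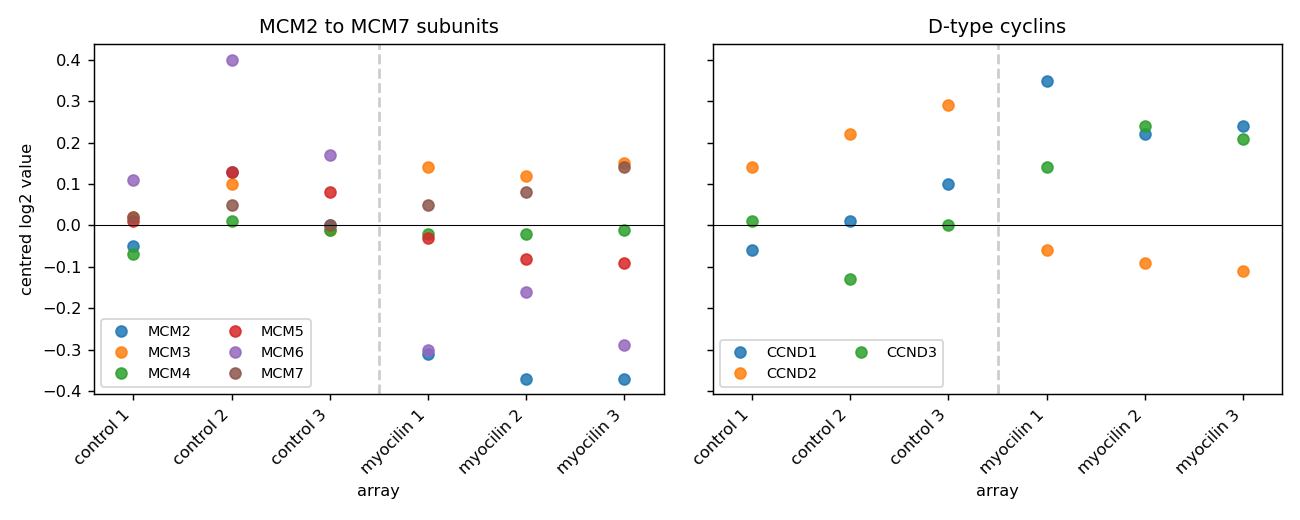
Centred log2 value (vertical axis) on each of the 3 control and 3 myocilin arrays (horizontal axis) for the 6 subunits of the MCM ring (left) and the 3 D-type cyclins (right); each point is 1 gene on 1 array. MCM2, MCM6 and CCND2 are lower on all 3 myocilin arrays than on any control array, and CCND1 and CCND3 are higher; the values are centred, so heights of different genes on 1 array are not levels.

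Of the 10 licensing genes, 2 were higher, 2 lower and 6 did not pass (median 0.05). The loader CDT1 and its inhibitor geminin, encoded by GMNN, were both higher. CDT1 read 0.07, 0 and 0.02 in the control line and 0.36, 0.28 and 0.47 in the myocilin line. It rose by 0.34 ± 0.07, or 1.27-fold (limma adjusted p = 0.00865), and its 2 probe sets were close, at 0.32 and 0.35. GMNN read -0.06, -0.04 and 0.01 and then 0.13, 0.19 and 0.21, without overlap, and rose by 0.21 ± 0.06 (limma adjusted p = 0.0346). Neither of the other loaders passed: CDC6 differed by 0.12 (95% interval -0.02 to 0.26) and ORC1, the largest subunit of the origin recognition complex, by 0.04 (-0.09 to 0.16).

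The 6 subunits of the MCM ring did not move together. MCM2 read -0.05, 0.13 and 0 in the control line and -0.31, -0.37 and -0.37 in the myocilin line. It fell by 0.38 (SE 0.06, limma adjusted p = 0.00514), a 1.30-fold difference. MCM6 read 0.11, 0.40 and 0.17 in the control line and -0.30, -0.16 and -0.29 in the myocilin line. Its fall of 0.48 (SE 0.08, limma adjusted p = 0.0055) was the largest among the 40 genes, and control array 2 stood highest in its group. The 2 probe sets of MCM6 differed in size: 238977_at fell by 0.75 (limma adjusted p = 0.00468 over probe sets), while 201930_at differed by -0.20 and did not pass (adjusted p = 0.107). MCM5 differed by -0.14 (95% interval -0.27 to -0.01), which did not pass after adjustment (limma adjusted p = 0.134). MCM3 at 0.10 (-0.03 to 0.23), MCM7 at 0.07 (-0.06 to 0.19) and MCM4 at 0.01 (-0.11 to 0.13) did not pass either.

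Set against the mean of the other 5 subunits on the same array, MCM6 was at 0.20 ± 0.10 in the control line and -0.21 ± 0.09 in the myocilin line (SD, n = 3 each). MCM2 was at -0.04 ± 0.03 and -0.33 ± 0.04 on this measure, a shift of -0.29. The opposite shifts were 0.28 for MCM3, 0.24 for MCM7 and 0.17 for MCM4, and MCM5 stayed at -0.01. The lines were fully separated for 5 of the 6 subunits, each at the smallest exact two-sided permutation p of 0.1 (0.12 adjusted over the 6). These 6 measures share their values, since a fall in 1 subunit raises the others on this scale.

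**Figure D3:**
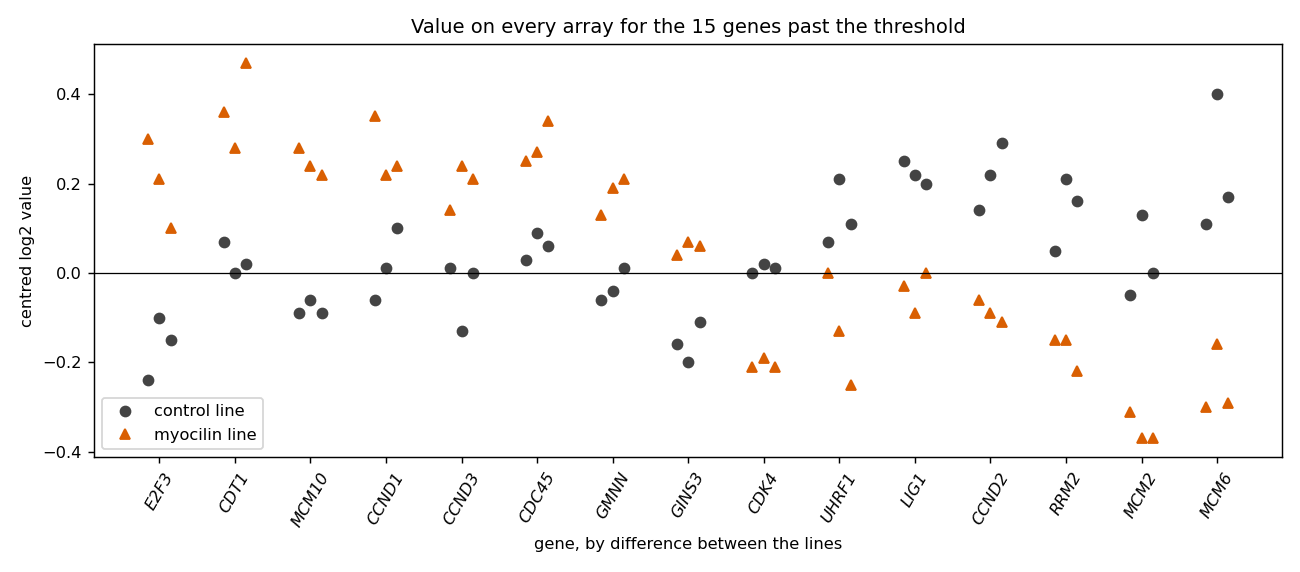
Centred log2 value (vertical axis) on every array for the 15 genes that passed the test, ordered from the largest rise to the largest fall along the horizontal axis; each circle is a control array and each triangle a myocilin array, 3 per line. The lines do not overlap for any of the 15 genes, with E2F3 up by 0.36 at one end and MCM6 down by 0.48 at the other.

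Among the 14 fork genes, 3 were higher, 1 was lower and 10 did not pass (median 0.01). The 3 that rose belong to the step that turns a loaded MCM ring into a helicase. MCM10, which assists this step, read -0.09, -0.06 and -0.09 in the control line and 0.28, 0.24 and 0.22 in the myocilin line. It rose by 0.32 ± 0.05 (limma adjusted p = 0.00425), and all 3 of its probe sets passed, at 0.40, 0.33 and 0.24. The call of 220651_s_at, at 0.40, held under all 8 alternatives tried for probe sets, that of 222962_s_at, at 0.33, in 4 of 8 and that of 223570_at, at 0.24 and close to the threshold (limma adjusted p = 0.0494 over probe sets), in 0 of 8. CDC45, a part of the helicase, read 0.03, 0.09 and 0.06 and then 0.25, 0.27 and 0.34, a rise of 0.22 ± 0.06 (limma adjusted p = 0.0262). GINS3, a subunit of the GINS complex, read -0.16, -0.20 and -0.11 against 0.04, 0.07 and 0.06. It rose by 0.21 ± 0.05 (limma adjusted p = 0.0301). The neighbouring subunits were less clear: GINS2 differed by 0.13 (95% interval 0.01 to 0.25, limma adjusted p = 0.138) with lines that did not overlap, and GINS1 by a value that rounds to 0 (-0.17 to 0.17).

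LIG1, the ligase that joins Okazaki fragments, was the fork gene that fell. It read 0.25, 0.22 and 0.20 in the control line and -0.03, -0.09 and 0 in the myocilin line. The lines were far apart compared with their spread, and the fall was 0.26 (SE 0.06, limma adjusted p = 0.0129). The enzymes that work beside it did not pass. The sliding clamp gene PCNA differed by -0.07 (95% interval -0.20 to 0.05) and the flap nuclease gene FEN1 by 0.02 (-0.10 to 0.15). The primase and polymerase alpha genes PRIM1 and POLA1 were at -0.12 (-0.25 to 0.01) and 0.06 (-0.07 to 0.20). POLE2 and POLD3, subunits of the leading- and lagging-strand polymerases, were at 0.05 (-0.08 to 0.17) and -0.13 (-0.30 to 0.05). The clamp loader genes RFC2 and RFC4 were at -0.04 (-0.17 to 0.10) and -0.01 (-0.15 to 0.14).

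For nucleotide supply, 1 of 2 genes passed. RRM2, the regulated small subunit of ribonucleotide reductase, read 0.05, 0.21 and 0.16 in the control line and -0.15, -0.15 and -0.22 in the myocilin line. It fell by 0.31 (SE 0.06, limma adjusted p = 0.00999). Its probe set 201890_at fell by 0.50, while 209773_s_at differed by -0.13 and did not pass. RRM1, the large subunit, differed by -0.07 (95% interval -0.20 to 0.05).

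All 3 E2F factors, the activators of replication genes, had positive differences, and 1 passed. E2F3 read -0.24, -0.10 and -0.15 in the control line and 0.30, 0.21 and 0.10 in the myocilin line. Its rise of 0.36 ± 0.07, or 1.29-fold (limma adjusted p = 0.00839), was the largest of the 40 genes. E2F2 read 0.08, -0.11 and -0.03 and then 0.17, 0.15 and 0.39; its difference of 0.26 (95% interval 0.08 to 0.44) did not pass among genes (limma adjusted p = 0.0622). Of its 3 probe sets, 207042_at rose by 0.63 (limma adjusted p = 0.0231 over probe sets), with myocilin array 3 highest at 0.93, and the other 2 differed by 0.16 and -0.02. E2F1, itself a target of E2F, differed by 0.10 (-0.03 to 0.24) and the lines overlapped.

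The remaining S-phase genes were level or lower. UHRF1, which brings the maintenance DNA methyltransferase to newly copied DNA, read 0.07, 0.21 and 0.11 in the control line and 0, -0.13 and -0.25 in the myocilin line. It fell by 0.25 (SE 0.07, limma adjusted p = 0.0481), close to the threshold, and did not pass as a probe set (adjusted p = 0.0862). SLBP, which binds histone mRNA, differed by -0.03 (95% interval -0.16 to 0.11).

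**Figure D4:**
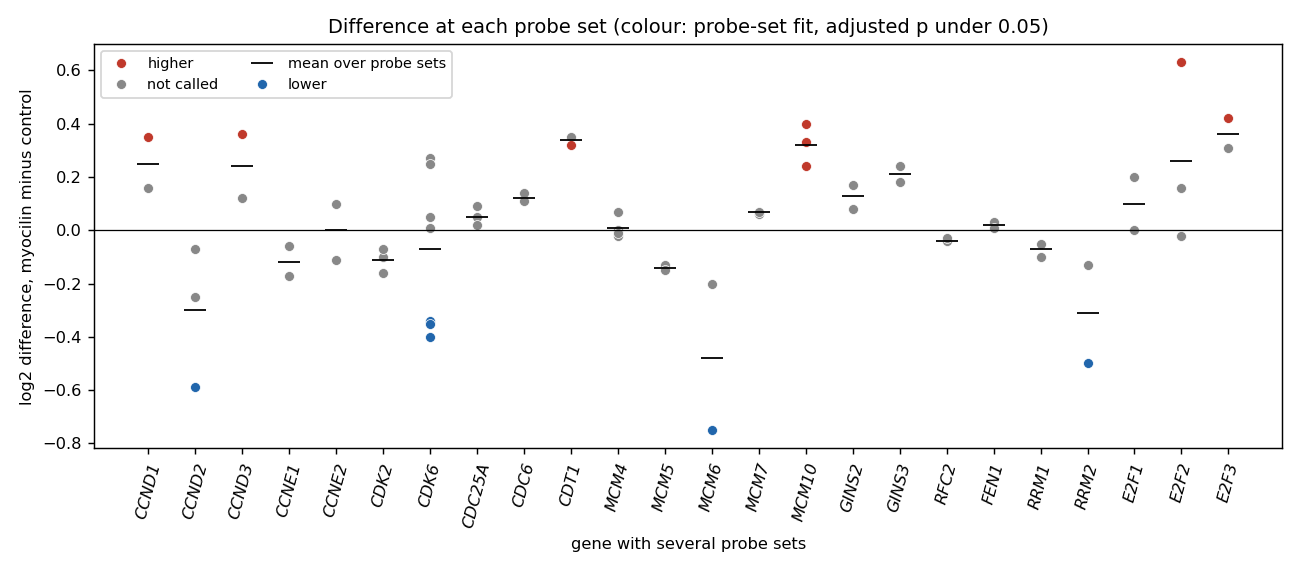
Log2 difference (myocilin minus control, vertical axis) at each probe set of the 24 genes with more than 1 (horizontal axis); each point is a probe set, coloured by the fit over all probe sets, and the dash is the mean used as the gene's value. CDK6 holds 3 lower probe sets beside others above 0, and CCND1, CCND2, CCND3, MCM6, RRM2 and E2F2 each owe much of their mean to 1 probe set.

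At the level of single probe sets, 8 of the 76 were higher and 8 lower, from 12 genes, against 5.46% and 5.56% of all probe sets. Probe sets of 1 gene share a target and are not replicates. For each of the 9 genes that passed with several probe sets, all probe sets had the same sign. CCND2 rests mostly on 200952_s_at, which fell by 0.59 (limma adjusted p = 0.00392 over probe sets), while 200953_s_at at -0.25 and 200951_s_at at -0.07 did not pass. CCND1 rose by 0.35 at 208711_s_at, while 208712_at at 0.16 did not pass. CCND3 rose by 0.36 at 201700_at, while 1562028_at at 0.12 did not pass and its lines overlapped.

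E2F sites are a known feature of the promoters of replication genes, so the members' promoters were searched for the E2F consensus, to show whether genes that rose and genes that fell both hold it. The windows were those of RefSeq (GRCh38.p14), from 250 bases before to 50 after each listed start. The 8-letter forms were TTTCCCGC, TTTCGCGC, TTTGCCGC and TTTGGCGC on either strand, and adjacent matches may overlap. Of the 40 genes, 33 had a window; CCND1, CCND2, CCNE2, CDK2, MCM4, MCM5 and POLD3 had none in the table. A form was present in at least 1 window of 19 of these 33 genes (57.6%), against 3.99% of all 27305 genes. It was present in 4 of 7 genes that were higher, 4 of 6 that were lower and 11 of 20 that did not pass, so genes of either direction hold these letters. The 7-letter forms, which lack the first T and are contained in the longer ones, were present in 25 of 33 genes against 15.3% of all. A match is a description of the sequence and not a measured binding site. Of the 8 genes that passed and hold a form, MCM2, GINS3 and GMNN have it after, across or beyond the first listed start. The stretches of the other 5 are given here, each with up to 30 bases on either side. Capitals mark the 8-letter matches, read 5′ to 3′ on the gene's strand.
MCM6, lower, chr2:135876492-135876625, minus strand: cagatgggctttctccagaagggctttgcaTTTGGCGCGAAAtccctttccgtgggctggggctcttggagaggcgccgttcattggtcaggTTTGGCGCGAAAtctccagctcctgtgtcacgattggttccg
E2F3, higher, chr6:20401796-20401863, plus strand: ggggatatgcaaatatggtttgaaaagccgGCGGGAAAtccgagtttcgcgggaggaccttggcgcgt
CDT1, higher, chr16:88803724-88803788, plus strand: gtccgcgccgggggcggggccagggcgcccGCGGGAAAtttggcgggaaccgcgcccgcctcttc
LIG1, lower, chr19:48170421-48170488, minus strand: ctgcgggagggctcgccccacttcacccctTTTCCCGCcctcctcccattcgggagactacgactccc
UHRF1, lower, chr19:4909457-4909500, plus strand: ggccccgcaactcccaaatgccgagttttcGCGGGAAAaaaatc
MCM6, whose mRNA was lower, holds 4 matches in 2 overlapping pairs. E2F3 and CDT1, which were higher, and UHRF1, which was lower, hold the same letters, GCGGGAAA. LIG1, which was lower, holds TTTCCCGC, which is the same form read on the other strand.

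The higher genes lay mostly on 4 chromosomes whose genes were higher as a whole. Chromosomes 6, 10, 16 and 22 had median log2 differences of 0.09, 0.11, 0.14 and 0.08 over their measured genes. Of the 10 members on these 4 chromosomes, a grouping made after the values were seen, 7 were higher and 0 lower; of the 30 on the others, 1 was higher and 7 were lower. Among all genes, 22.7% of those on the 4 chromosomes were higher and 1.63% lower, against 5.53% and 8.44% elsewhere. With the median of its chromosome subtracted on each array, E2F3 on chromosome 6 was still higher by 0.28, MCM10 on chromosome 10 by 0.24, CDT1 on chromosome 16 by 0.21 and CCND1 on chromosome 11 by 0.24 (limma adjusted p = 0.0313, 0.0199, 0.047 and 0.0446). CCND3 at 0.16, GMNN at 0.12, CDC45 at 0.13 and GINS3 at 0.09 no longer passed, and UHRF1 at -0.25 also did not (adjusted p = 0.0688). MCM5 passed as lower, at -0.23 (limma adjusted p = 0.0397). Whether copy number differs between the lines was not tested.

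**Figure D5:**
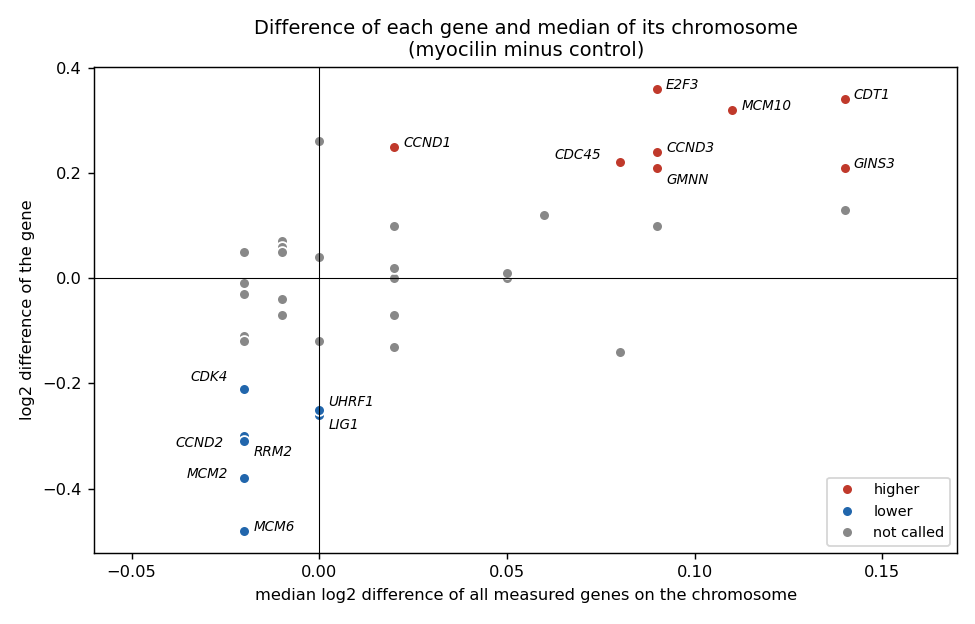
Log2 difference of each of the 40 genes (vertical axis) against the median log2 difference of all measured genes on its chromosome (horizontal axis), both myocilin minus control; each point is a gene, coloured by its call. Of the 8 higher genes, 7 lie on chromosomes with medians of 0.08 to 0.14, and the 7 lower genes lie on chromosomes with medians of -0.02 to 0.

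Of 108 other genes measured in 7 lists, 10 were higher and 8 lower, or 16.7% against 15.6% of all genes. The lists were small and unlike. The share called was 6.67% for nucleotide supply, 7.14% for licensing and origin genes and 13.8% for fork genes. For other cyclins, CDKs and ubiquitin ligases of G1/S it was 12.5%. It was 27.8% for mitosis genes, 28.6% for E2F and DP genes and 33.3% for the brakes of G1/S. Of 14 other licensing and origin genes, ORC3, an origin recognition subunit, rose by 0.25 and 0 fell. Of 29 other fork genes, 1 rose and 3 fell: CHTF18, of an alternative clamp loader, rose by 0.40, while the polymerase epsilon subunit gene POLE4 fell by 0.40, the histone chaperone gene ASF1B by 0.39 and RPA2, of the single-strand binding complex, by 0.22. Of 15 other genes of nucleotide supply, TYMS, the thymidylate synthase gene, fell by 0.39 and 0 rose; it lies on chromosome 18, where the median was -0.21. Of 7 other E2F and DP genes, E2F5 rose by 0.20 and E2F6 by 0.22, and 0 fell.

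The brakes of G1/S moved both ways, with 1 higher and 2 lower of 9 measured. The CDK inhibitor gene CDKN1B read 0.19, 0.29 and 0.02 in the control line and -0.23, -0.08 and -0.46 in the myocilin line, a fall of 0.43 (SE 0.10, limma adjusted p = 0.0231). The spread within each line was wide, though the lines did not overlap. CDKN1C, a relative of it, rose by 0.36 ± 0.06 (limma adjusted p = 0.00315), and RB1, the target of the cyclin D kinases, fell by 0.26 (SE 0.06, limma adjusted p = 0.0223). Among 16 other cyclin, CDK and ubiquitin ligase genes, FBXO5, an inhibitor of the anaphase-promoting complex, rose by 0.22 and CDCA7 fell by 0.24. Of 18 mitosis genes, 4 rose, namely PLK1 by 0.30, CDC20 by 0.24, TTK by 0.21 and MKI67 by 0.19, and CENPE fell by 0.39. With the chromosome median subtracted, ORC3 at 0.17, E2F5 at 0.16 and FBXO5 at 0.13 did not pass. Neither did PLK1 at 0.18, TTK at 0.13 and MKI67 at 0.11. CDC20 stayed at 0.24 and CDCA7 was at -0.21, and they did not pass either (limma adjusted p = 0.0509 and 0.0651). CHTF18 was at 0.27 and still passed (limma adjusted p = 0.0498), and TYMS was at -0.20. POLE4, ASF1B, TYMS, CDKN1C and CENPE passed under each of the 13 alternatives tried. Probe sets of 3 of them differed widely in size, from -0.61 to -0.04 for POLE4, -0.62 to -0.10 for TYMS and 0.07 to 0.60 for CDKN1C. At the other end, MKI67 passed in 4 of 12 alternatives and E2F5 in 5 of 12.

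The calls differed in how often they held when 1 array was left out. Fewer genes of the whole table passed in these fits, 1613 to 2220 against 2866 with all 6 arrays. CCND2, CDT1, MCM2, MCM6, MCM10, RRM2 and E2F3 passed with each of the 6 arrays left out in turn, and LIG1 passed except without myocilin array 2 (limma adjusted p = 0.0517). The calls of CDK4, GMNN and CDC45 were lost whichever array was left out, with differences that stayed at -0.22 to -0.21, 0.19 to 0.23 and 0.20 to 0.24. CCND1 and GINS3 passed only without control array 3, CCND3 only without control array 1 and UHRF1 only without myocilin array 1 (limma adjusted p = 0.0334, 0.0441, 0.0468 and 0.0381). UHRF1 then ran from -0.32 to -0.19. The count of higher members was 3 to 5, and of lower members 4 to 6, when an array was left out. Among the probe sets, the fall of CDK6 at 224848_at passed under all 8 alternatives tried there, that at 224847_at in 7 and that at 224851_at in 3. The rise of E2F2 at 207042_at passed in 5 of 8. LIG1 at 202726_at passed in 2 of 8, CCND1 at 208711_s_at in 3, CDT1 at 228868_x_at in 5 and CCND3 at 201700_at in 7, while the called probe sets of CCND2, MCM2, MCM6, RRM2 and E2F3 passed in all 8.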

How the data were processed

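Total RNA of the 2 lines was hybridised to Affymetrix HG-U133 Plus 2.0 arrays. The authors deposited a table of values on a log scale, read here as log2 from the values; how background, summarisation and normalisation were handled is not given in the sources used here. Array medians are all 0, and an exact 0 on at least 1 array occurs in 57.3% of probe sets. Precision is limited by 3 arrays per group.

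Groups were taken from the source names. Of 37460 probe sets with 1 gene, 37416 were matched to RefSeq by Entrez identifier. A gene's value is the mean of its probe sets. Lines were compared with limma 3.58.1 (lmFit, eBayes, two-sided) in R 4.3.3, over all genes and over all probe sets, p-values being adjusted by Benjamini-Hochberg and called under 0.05. The fit was tested on simulated data. It recovered 26.9% of inserted differences of 0.3 log2, 76.1% of those of 0.5 and 95.5% of those of 1, with 8 false calls among 140. A gene that did not pass may therefore still differ by a small amount. The simulation changed only 67, 67 and 66 of 18338 genes at these sizes, while 15.6% of genes passed in the data. The adjusted threshold depends on that share, so the shares recovered may not carry over to these data. Members and lists were chosen with earlier results of these data known. All 40 members are named, and every gene of the lists that passed. CDKN2C and another listed gene are not analysed here. Alternatives were weighted arrays, quantile normalisation, eBayes with trend and robust, centring on array medians, leaving out _x_at and _s_at probe sets, the median of probe sets, the chromosome median subtracted and each array left out. The filter on dim probe sets was not run, since centred values hold no level.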

Additional observations from a re-analysis of the deposited data

How the results depend on the processing

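No paired analysis was possible because the labels give the lines no shared replicate numbers. Median centring moved no value, and 0 of the 15 called members changed sign under any alternative run. With _x_at and _s_at probe sets left out, 15545 genes, 29 members and 84 list genes were left: 1878 genes passed, 3 members were higher (CCND3, MCM10, GINS3) and 3 lower (MCM6, LIG1, RRM2), 15 members did not overlap, and list genes gave 3 higher and 13 lower. Of the 15 called members, 7 had no probe set left there. Class medians became 0.02 for licensing, -0.50 for nucleotide supply, 0.13 for E2F and -0.25 for other S-phase genes. In that run nucleotide supply was RRM2 alone, at 201890_at, and the other S-phase genes were UHRF1 alone. E2F3 had no probe set left, so these medians are not shifts of the same genes. With the median of probe sets, class medians were -0.12 for cyclins and CDKs and 0.11 for E2F. With the chromosome median subtracted, 2215 genes passed, against 2866 in the main fit. Of the members 4 were higher and 7 lower, and of the list genes 3 were higher and 7 lower. Leaving out 1 array gave 1613 to 2220 genes, 3 to 5 higher and 4 to 6 lower members, 3 to 6 higher and 5 to 7 lower member probe sets, 26 to 29 members without overlap, and 1 to 7 higher and 4 to 9 lower list genes. In all these alternatives, overlap and called probe sets were counted for members only, without the share over all features. With fewer arrays, lines separate more easily for any gene, so the 26 to 29 members do not measure stability. The lowest counts of all genes were 1613 when myocilin array 1 was left out, 1889 for control array 2 and 1905 for myocilin array 2. Class medians then ran from -0.11 to -0.02 for cyclins and CDKs, 0.04 to 0.06 for licensing, 0 to 0.05 for fork, -0.22 to -0.17 for nucleotide supply, 0.18 to 0.31 for E2F and -0.16 to -0.10 for other S-phase genes. Some of these alternatives hold fewer genes or arrays and others do not, and the cause of the changes was not tested.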
